A study of Homo sapiens with 4 samples.

Results

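The collagen genes of A549, a human lung adenocarcinoma cell line, were followed after knockdown of SBF2-AS1, a long non-coding RNA. Members were the symbols made of COL, a number, A and a number, without antisense genes or pseudogenes, which gave 44 of the 40205 symbols in the count table. Of these, 31 had at least 10 counts summed over the 4 libraries and are described by name. COL7A1, the gene taken to mark the family, was among them. After knockdown 15 of the 24 genes that could be tested were called higher and 1 lower, against 23.5% and 22.8% of all genes tested. Correcting for the GC content and length of transcripts left 9 of the 15 called higher, and COL4A5 and COL4A6 are among the calls it ended. COL7A1, the chain of anchoring fibrils, rose 2.99-fold and COL5A1, a chain of thin fibrils, rose 2.86-fold. The 6 type IV chains and the 2 measurable type VI chains were also called higher before that correction. COL26A1 fell to 0.48 of its control level.

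The knockdown group was 2 libraries of A549 cells transfected with small interfering RNA (siRNA) to SBF2-AS1 (Knockdown-670 and Knockdown-732). The controls were 2 libraries of A549 cells that received negative control siRNA (control libraries 1 and 2). Both groups went through the same lipid transfection in 6-well plates and were harvested at 24 h. What the numbers in the knockdown names stand for is not given. Nor is it said whether the libraries of a group are different cultures, and the p-values cover the spread among these libraries only, which may be technical.

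The knockdown libraries held 12149767 and 12894529 counts and the control libraries 12701132 and 12938143. SBF2-AS1 itself had 1.27 and 1.42 CPM (counts scaled to library size with trimmed mean of M values, TMM, factors) in the knockdown libraries, against 4.41 and 5.97 CPM in the controls, or −1.94 ± 0.30 on the log2 scale (SE; edgeR quasi-likelihood test, adjusted p = 3.19e-05). The knockdown was broad: 7463 of the 16120 genes that entered the test (46.3%) were called at 0.05. Epithelial marker genes summed to 2647 and 2493 CPM in the knockdown libraries, against 3847 and 3944 CPM in the controls, with KRT19 higher, EPCAM, KRT8 and KRT18 lower, and CDH1 not called. Stromal markers, those of the cells that make most collagen in tissue, summed to 8.66 and 6.70 CPM in the knockdown libraries, against 8.12 and 6.35 CPM in the controls, with 0 of the 2 tested called by edgeR (0 also by DESeq2 and 0 at an unadjusted p under 0.05) and FAP at 0. Endothelial markers summed to under 1 CPM in every library. Immune markers summed to 8.75 and 9.77 CPM with knockdown, against 12.1 and 9.98 CPM in the controls, with CD3E at 0. Nearly all of the immune sum was CD14, at 8.66 and 9.61 CPM with knockdown, against 12.1 and 9.90 CPM in the controls. In bulk RNA, a change in how many cells make a transcript and a change in its RNA per cell cannot be told apart.

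Collagens are secreted proteins in which chains with glycine at regular intervals wind into a triple helix, after hydroxylation of their prolines and lysines in the endoplasmic reticulum. Fibril-forming collagens give tissue tensile strength, type IV collagens form the sheet-like network of basement membranes, type VI forms beaded filaments, and type VII ties epithelial basement membranes to the matrix beneath. Lung epithelium rests on a type IV network, while most fibrillar collagen in the lung is made by fibroblasts. In epithelial tumours, collagens and the enzymes that cross-link them form part of the matrix that the cells attach to and move through.

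Some collagen chains share gene structure and microRNA matches that can be read from the genome. The microRNAs of the miR-29 family are known regulators of collagen messages, and the series title describes SBF2-AS1 as a microRNA sponge. Whether SBF2-AS1 acts on miR-29 was not tested here, and no level of miR-29 is given. The mature miR-29 arms are shown because they share 1 seed, bases 2 to 8, printed in capitals (RefSeq, GRCh38.p14; miR-29a from chr7:130876748-130876769, minus strand, miR-29b from chr1:207802450-207802472, minus strand, and miR-29c from chr1:207801865-207801886, minus strand).
hsa-miR-29a-3p: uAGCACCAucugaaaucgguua
hsa-miR-29b-3p: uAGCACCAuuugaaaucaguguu
hsa-miR-29c-3p: uAGCACCAuuugaaaucgguua

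The match to that seed, TGGTGCT, was searched on the transcript strand of the 3' untranslated region (UTR) of each gene (GENCODE v29, GRCh38). It was found in 20 of the 31 named collagen genes (64.5%), against 12.4% of 18492 genes with a 3' UTR, whose median length was 1067 bases in the named collagens and 847 bases over all genes. COL5A1 had 4 matches, COL4A4 and COL5A3 had 3 each, and COL7A1, COL4A3, COL3A1, COL11A1 and COL21A1 had 2 each. The 30-base windows below hold every match of 2 sets of chains. The first set is the chains called at least 2-fold higher that have a match (COL7A1, COL5A1, COL6A2 and COL4A3), and the second is the other type IV and V chains among the 6 most abundant per kilobase with knockdown. They run 5′ to 3′ on the transcript strand with the match in capitals. They lie in 3' UTRs at chr3:48564315-48564344 and chr3:48564102-48564131 (COL7A1, minus strand), chr9:134843327-134843356, chr9:134843367-134843396, chr9:134843701-134843730 and chr9:134844082-134844111 (COL5A1, plus strand), chr2:189032866-189032895 (COL5A2, minus strand), chr13:110150319-110150348 (COL4A1, minus strand), chr13:110512204-110512233 (COL4A2, plus strand), chr21:46132587-46132616 (COL6A2, plus strand), chr2:227313528-227313557 and chr2:227314154-227314183 (COL4A3, plus strand), chrX:108696469-108696498 (COL4A5, plus strand) and chrX:108156764-108156793 (COL4A6, minus strand).
COL7A1, base 77 of the 3' UTR: cactgtccctcccctTGGTGCTagaggctt
COL7A1, base 290 of the 3' UTR: aagcctgtgatgacaTGGTGCTgattctgg
COL5A1, base 1039 of the 3' UTR: taactcaatgaaaatTGGTGCTtatttttt
COL5A1, base 1079 of the 3' UTR: cttgtggctctcttgTGGTGCTatctatct
COL5A1, base 1413 of the 3' UTR: gttcctgaatgtttgTGGTGCTaatttctg
COL5A1, base 1794 of the 3' UTR: gagcctgcggggctcTGGTGCTgtccccga
COL5A2, base 1190 of the 3' UTR: tttttcctttaatgaTGGTGCTaaaattct
COL4A1, base 30 of the 3' UTR: gctaatgtcacaacaTGGTGCTacttcttc
COL4A2, base 28 of the 3' UTR: caggaagggccatttTGGTGCTtattctta
COL6A2, base 50 of the 3' UTR: agcccaccccgtccaTGGTGCTaagcgggc
COL4A3, base 1673 of the 3' UTR: cctaggtggagttggTGGTGCTgatattta
COL4A3, base 2299 of the 3' UTR: gtaaaagccctagacTGGTGCTaatgtcaa
COL4A5, base 106 of the 3' UTR: tactgctgccgtcaaTGGTGCTactatata
COL4A6, base 222 of the 3' UTR: ctgtttctgtcaagcTGGTGCTactgtttg
A base A directly after the match, which lies opposite the first base of the microRNA, followed 17 of the 32 matches in the named collagens. A match is a description of the letters, not a site shown to be used.

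The type IV genes lie in pairs that start back to back. By RefSeq, the starts of COL4A1 (minus strand) and COL4A2 (plus strand) are separated by 126 bases at chr13:110307158-110307283, shown because the same short stretch lies before both genes (plus strand, RefSeq, GRCh38.p14; capitals mark CCAAT and GGGCGG).
COL4A1 and COL4A2, shared stretch: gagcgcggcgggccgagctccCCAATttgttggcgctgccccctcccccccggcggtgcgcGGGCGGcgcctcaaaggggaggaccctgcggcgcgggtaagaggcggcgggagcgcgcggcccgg
By RefSeq, the starts of COL4A4 and COL4A3 are separated by 418 bases on chromosome 2, and those of COL4A6 and COL4A5 by 379 bases on chromosome X. The gaps depend on the annotation. By the outermost ends in GENCODE v29, COL4A1 and COL4A2 overlap by 1422 bases, with no exon base shared, while 111 bases lie between COL4A4 and COL4A3 and 346 between COL4A6 and COL4A5.

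Of the 31 named genes, 25 had a promoter entry in RefSeq. In the 250 bases before the start, on either strand, GGGCGG occurred in 18 of the 25 (72.0%), against 46.2% of all 27305 genes with an entry, and CCAAT in 9 (36.0%), against 37.0%. The sequence TATAAA occurred in 5 (20.0%), against 3563 of all 27305 genes, and ACGTG in 5 (20.0%), against 21.7%. None of these 4 motifs holds another, and the genes compared were not matched for GC content. The 250 bases before the start of COL7A1 are at chr3:48595330-48595579, on the minus strand as transcribed, with GGGCGG and its reverse complement CCGCCC in capitals, and are shown because COL7A1 had the largest called fold.
COL7A1 promoter: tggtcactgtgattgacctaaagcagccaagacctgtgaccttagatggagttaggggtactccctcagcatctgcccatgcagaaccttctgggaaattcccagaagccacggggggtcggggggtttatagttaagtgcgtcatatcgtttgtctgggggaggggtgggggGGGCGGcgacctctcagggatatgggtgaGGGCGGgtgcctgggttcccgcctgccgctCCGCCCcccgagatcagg

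Collagen genes took 0.332% and 0.358% of all counts in the knockdown libraries, against 0.205% and 0.224% in the controls. On the TMM-scaled CPM used throughout, the collagen genes summed to 3421 and 3639 CPM with knockdown, against 2011 and 2195 CPM in the controls. The plot of CPM by library shows a range from below 1 CPM to 894 CPM among the named genes, the highest being COL5A2 in Knockdown-732.

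**Figure D1:**
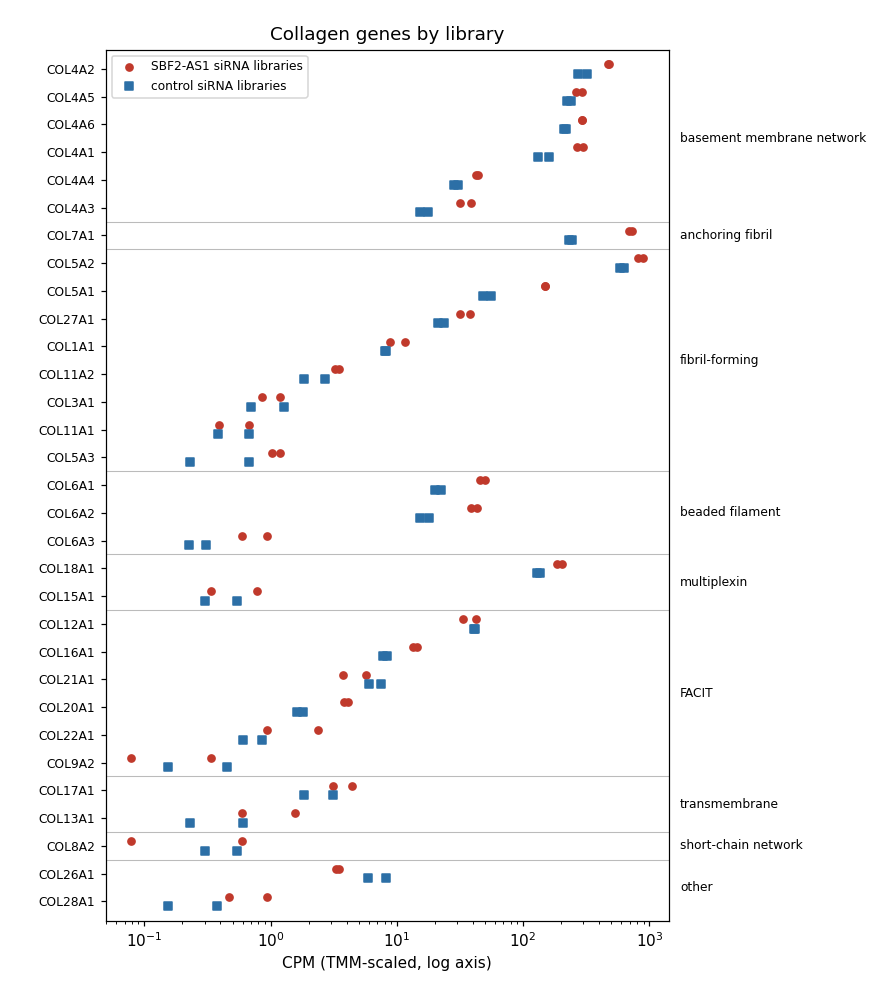
Expression of the 31 collagen genes with at least 10 summed counts, as TMM-scaled CPM on a log axis, grouped by structural class, with 1 point per library (red circles for SBF2-AS1 siRNA, blue squares for control siRNA). COL7A1, COL5A1 and the type IV chains lie higher in both knockdown libraries, and COL26A1 lies lower.

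Enough counts for a test, set at about 0.78 CPM in at least 2 libraries, were found for 24 of the 44 genes. COL3A1, COL5A3 and COL22A1 passed that filter only through the knockdown libraries, and none of these 3 was called. By edgeR's quasi-likelihood test 15 of the 24 were higher (62.5%) and 1 was lower (4.17%) at an adjusted p of 0.05, against 23.5% of all genes tested called higher and 22.8% called lower. Their median log2 fold change was 0.62, against 0.00 over all genes. Both knockdown libraries were above both controls for 20 of the 24 and below for 2, against 36.4% and 36.2% of all genes tested. The 20 include COL5A3 and COL22A1, which became testable only through the knockdown libraries, and these genes and COL3A1 also enter the median. A rise of at least 2-fold with a call was seen for 6 of the 24, against 5.57% of all genes.

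As a set, the tested collagen transcripts were long and rich in G and C, although COL5A2, COL12A1 and COL21A1 had a GC content below the median of all genes. The 24 tested genes had a median GC content of 60.7% and a median length of 6540 bases, against 48.9% and 3155 bases over all tested genes with a known transcript. A smooth trend of fold change on GC content and length explained 12.6% of the variance between genes and gave the collagens a median log2 shift of 0.38. With that trend taken out, 9 of the 15 remained called higher, COL26A1 remained lower, and the median of the 24 was 0.31, against 21.0% of all genes called higher and 19.9% lower. The plot of fold changes shows both fits, and each call that the correction ends is named below. Whether GC content and length contribute to the difference by a technical route was not tested.

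**Figure D2:**
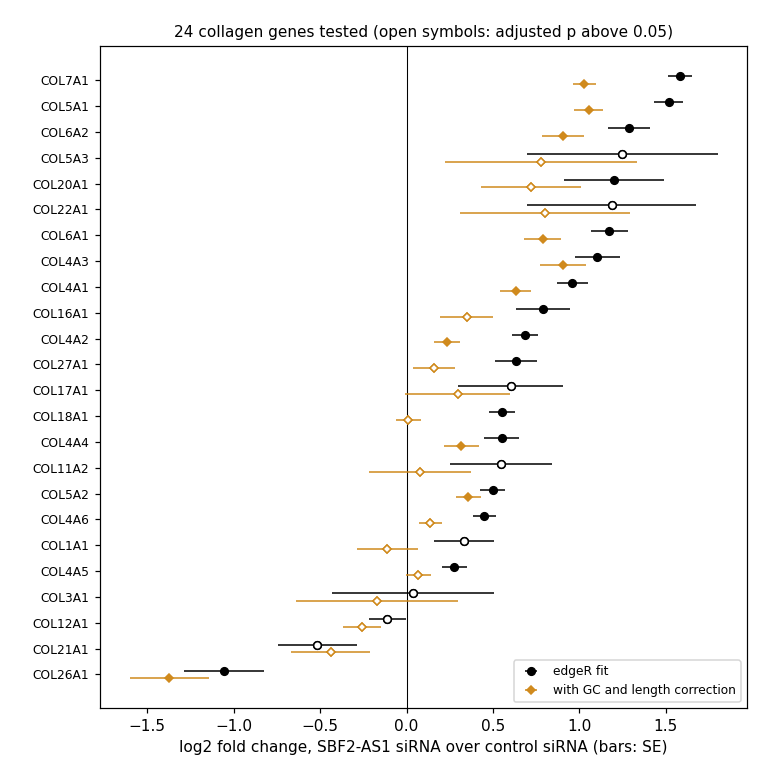
Log2 fold change (knockdown over control) ± SE of the 24 tested collagen genes by edgeR's quasi-likelihood fit, without and with the GC and length correction, filled where the adjusted p was at most 0.05. The corrected values lie nearer to 0 for most genes that rose, and farther from 0 for COL26A1.

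COL7A1, the sole chain of type VII collagen, whose mutation causes dystrophic epidermolysis bullosa, lies at chr3:48564073-48595267 on the minus strand (GENCODE v29, GRCh38). The knockdown libraries had 692 and 729 CPM, against 232 and 243 CPM in the controls. The libraries of each group lay close together and far from the other group. On the log2 scale the rise was 1.58 ± 0.07 by edgeR (SE, adjusted p = 3.34e-12), and 1.03 with the GC and length correction (adjusted p = 1.03e-09). Of all collagen counts scaled per kilobase of transcript, COL7A1 made up 15.5% and 15.4% with knockdown, against 8.66% and 8.32% in the controls.

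Among the fibril-forming chains 3 of 7 tested genes rose and 4 were not called, against 23.5% of all genes called higher, and 2 of the 3 stayed called with the GC and length correction. COL5A1, chr9:134641774-134844843 on the plus strand, encodes a chain of type V collagen, which helps to set the diameter of type I fibrils. It had 148 and 149 CPM in the knockdown libraries, against 47.8 and 56.2 CPM in the controls, a log2 rise of 1.52 ± 0.08 (edgeR, adjusted p = 6.33e-11) and 1.05 with the GC and length correction. COL5A2, chr2:189031896-189225312 on the minus strand, encodes the partner chain and was the most abundant collagen by CPM. Its level was 815 and 894 CPM with knockdown, against 581 and 630 CPM in the controls, a log2 rise of 0.50 ± 0.07 (edgeR, adjusted p = 1.75e-05). The groups did not overlap for either chain, and the rise was larger for COL5A1. COL5A3, the third type V chain, had 1.02 and 1.18 CPM with knockdown, against 0.232 and 0.680 CPM in the controls, and was not called (adjusted p = 0.0716).

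COL27A1, a fibrillar collagen known from cartilage, had 37.9 and 31.5 CPM in the knockdown libraries, against 21.0 and 23.7 CPM in the controls (log2 fold change 0.63 ± 0.12, edgeR, adjusted p = 0.000337). With the GC and length correction this call was lost (0.16, adjusted p = 0.311). COL1A1, the major chain of type I collagen, had 11.5 and 8.90 CPM with knockdown, against 8.20 and 8.01 CPM in the controls. Knockdown-670 stood above the other 3 libraries, the groups did not overlap, and the gene was not called (log2 fold change 0.33 ± 0.18, edgeR, adjusted p = 0.131). Without Knockdown-732 it was called, at 0.50 (adjusted p = 0.0461). Its partner COL1A2, the other chain of the type I molecule, had 4 counts over all 4 libraries. COL3A1, the type III chain, had 0.849 and 1.18 CPM with knockdown, against 0.696 and 1.28 CPM in the controls, which overlap. COL11A2, a type XI chain, had 3.48 and 3.23 CPM with knockdown, against 1.86 and 2.72 CPM in the controls, and was not called (adjusted p = 0.138). COL11A1 was too low to test, with 27 counts over the 4 libraries.

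All 6 type IV chains, which assemble into the basement membrane network, were expressed and all 6 were called higher, against 23.5% of all genes. COL4A5 and COL4A6 lost the call with the GC and length correction. COL4A1 and COL4A2 form the network present in nearly every basement membrane. COL4A1, chr13:110148963-110307233 on the minus strand, had 267 and 296 CPM in the knockdown libraries, against 131 and 159 CPM in the controls (log2 fold change 0.96 ± 0.09, edgeR, adjusted p = 6.4e-07). COL4A2, chr13:110305812-110513209 on the plus strand, had 472 and 479 CPM with knockdown, against 271 and 319 CPM in the controls (0.69 ± 0.08, adjusted p = 7.68e-07). Both groups were separate for both genes, and with the GC and length correction both stayed called, at log2 values of 0.63 for COL4A1 and 0.23 for COL4A2.

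COL4A3 and COL4A4 pair with COL4A5 in the basement membranes of kidney glomeruli and lung alveoli, and their mutation causes Alport syndrome. COL4A3 had 31.6 and 38.9 CPM in the knockdown libraries, against 15.2 and 17.6 CPM in the controls (log2 fold change 1.10 ± 0.13, edgeR, adjusted p = 1.7e-06). COL4A4 had 44.1 and 42.1 CPM with knockdown, against 28.5 and 30.4 CPM in the controls (0.55 ± 0.10, adjusted p = 0.000192). By CPM these chains were far less abundant than the other type IV chains, and their groups did not overlap. Per kilobase of the longest transcript, COL4A3 had 4.35 CPM with knockdown and 2.03 in the controls, against 43.4 and 31.8 for COL4A6. The median transcript length was 910 bases for COL4A3 and 6598 bases for COL4A6. Per kilobase of that median length, COL4A3 had 38.7 CPM with knockdown, against 44.4 for COL4A6. In the controls these values were 18.0 for COL4A3 and 32.5 for COL4A6. With the GC and length correction the log2 values were 0.91 for COL4A3 and 0.32 for COL4A4, both still called.

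COL4A5 and COL4A6, which combine in the basement membranes of smooth muscle and some epithelia, had the smallest fold changes of the type IV genes. COL4A5 had 264 and 295 CPM in the knockdown libraries, against 224 and 238 CPM in the controls (log2 fold change 0.28 ± 0.07, edgeR, adjusted p = 0.00431). COL4A6 had 291 and 295 CPM with knockdown, against 212 and 217 CPM in the controls (0.45 ± 0.07, adjusted p = 2.04e-05). The groups did not overlap, but neither call held with the GC and length correction, where the log2 values were 0.07 for COL4A5 (adjusted p = 0.491) and 0.14 for COL4A6 (adjusted p = 0.106). Without Knockdown-732, COL4A5 was also not called (0.18, adjusted p = 0.115).

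Type VI collagen forms beaded filaments that link cells to the surrounding matrix. COL6A1, chr21:45981737-46005050 on the plus strand, had 45.6 and 49.6 CPM in the knockdown libraries, against 19.9 and 22.3 CPM in the controls (log2 fold change 1.17 ± 0.11, edgeR, adjusted p = 6.54e-08). COL6A2, its neighbour at chr21:46098097-46132849 on the plus strand, had 43.1 and 38.5 CPM with knockdown, against 18.1 and 15.3 CPM in the controls (1.29 ± 0.12, adjusted p = 8.96e-08). Both rose by similar factors, and with the GC and length correction both stayed called, at 0.79 for COL6A1 and 0.90 for COL6A2. COL6A3, the third chain of the type VI molecule, was too low to test, with 26 counts in all: 0.594 and 0.946 CPM with knockdown, against 0.309 and 0.227 CPM in the controls. COL6A5 had no count and COL6A6 had 1.

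FACIT collagens (fibril-associated with interrupted triple helices) sit on the surface of fibrils and were low in these cells, with 2 of 5 tested genes higher, against 23.5% of all genes. COL16A1, found near basement membranes, had 13.4 and 14.6 CPM in the knockdown libraries, against 8.43 and 7.78 CPM in the controls (log2 fold change 0.79 ± 0.15, edgeR, adjusted p = 0.000397). COL20A1 had 45 and 52 counts with knockdown, against 21 and 24 in the controls (1.20 ± 0.29, adjusted p = 0.00222). Both groups were separate, but with the GC and length correction neither call held, at 0.35 for COL16A1 (adjusted p = 0.0824) and 0.72 for COL20A1 (adjusted p = 0.0546). COL12A1, which binds type I fibrils, had the highest CPM of the FACIT chains. Per kilobase of the longest transcript it stood above COL16A1, at 3.24 against 2.44 CPM with knockdown and 3.50 against 1.41 in the controls. Per kilobase of median transcript length, which is 924 bases for COL16A1, it stood below COL16A1. COL12A1 had 33.5 and 42.5 CPM with knockdown, against 41.4 and 40.7 CPM in the controls. Its knockdown libraries lay on either side of the controls, and it was not called (−0.11 ± 0.11, adjusted p = 0.435). Without Knockdown-732 it was called lower, at −0.31 (adjusted p = 0.0499).

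COL21A1 had 3.74 and 5.67 CPM in the knockdown libraries, against 6.03 and 7.48 CPM in the controls (log2 fold change −0.52 ± 0.23, edgeR, adjusted p = 0.0735). COL22A1, a chain of tissue junctions, had 0.934 and 2.36 CPM with knockdown, against 0.850 and 0.605 CPM in the controls (1.19 ± 0.49, adjusted p = 0.0556). The groups did not overlap in either gene and neither was called. Leaving out single libraries moved both across the threshold, COL21A1 without Knockdown-732 (−0.86, adjusted p = 0.00833) or without control library 1 (−0.67, adjusted p = 0.0439), and COL22A1 without Knockdown-670 (1.69, adjusted p = 0.00933). COL9A2, a cartilage FACIT chain, was too low to test, with 13 counts.

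COL18A1, the basement membrane multiplexin whose end fragment is endostatin, had 185 and 205 CPM in the knockdown libraries, against 129 and 137 CPM in the controls (log2 fold change 0.55 ± 0.07, edgeR, adjusted p = 6.54e-06). The groups were separate, but with the GC and length correction the log2 value was 0.01 (adjusted p = 0.923) and the call was lost. COL18A1 shares 1401 exon bases with SLC19A1 on the opposite strand, and whether counting used the strand is not given. SLC19A1 had 7.98 and 8.83 CPM with knockdown, against 7.58 and 9.30 CPM in the controls, and was not called (adjusted p = 0.985). COL15A1, the other multiplexin, had 25 counts in all and was not tested.

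COL17A1, the transmembrane collagen of hemidesmosomes, had 4.42 and 3.15 CPM in the knockdown libraries, against 1.86 and 3.10 CPM in the controls, and was not called (log2 fold change 0.60 ± 0.30, edgeR, adjusted p = 0.113). Without control library 2 it was called, at 1.01 (adjusted p = 0.0252). COL13A1, another transmembrane collagen, and COL28A1, a von Willebrand factor A domain collagen, had 38 and 24 counts in all and were not tested. COL8A2, a short-chain collagen of the corneal endothelial membrane, had 19.

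COL26A1, a low-abundance collagen with an EMI domain, was the sole collagen gene called lower. It had 39 and 44 counts in the knockdown libraries, against 77 and 108 in the controls, or 3.31 and 3.47 CPM with knockdown, against 5.95 and 8.16 CPM in the controls. The knockdown libraries were close together and below both controls. It fell by 1.06 ± 0.23 on the log2 scale (edgeR, adjusted p = 0.00103), a log2 fold change that was −1.37 with the GC and length correction (adjusted p = 0.000101).

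The other 13 members had fewer than 10 counts over the 4 libraries. COL6A5, COL19A1 and COL23A1 had none, COL6A6, COL9A1 and COL10A1 had 1 each, COL25A1 had 2, COL2A1 and COL8A1 had 3 each, COL1A2 had 4, COL9A3 had 5, COL24A1 had 6 and COL14A1 had 8. These include the chains that mark cartilage (COL2A1, COL9A1, COL9A3, COL10A1) and the main partner of COL1A1 in fibroblasts. At this depth a level near 0 could not be told from absence.

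Levels between genes can be compared only per length, so CPM was divided by the longest annotated transcript. On that scale COL5A2 was the most abundant chain in both groups, with a mean of 120.7 CPM per kilobase with knockdown, against 85.5 in the controls. COL7A1 was next with knockdown, at 76.6 CPM per kilobase, against 25.6 in the controls, where COL4A2, COL4A5 and COL4A6 stood above it. COL4A2 had 73.2 CPM per kilobase with knockdown, against 45.5 in the controls. COL4A1, COL4A5 and COL4A6 lay close to each other with knockdown, at 42.6, 43.1 and 43.4 CPM per kilobase, against 21.9, 35.6 and 31.8 in the controls. With the median transcript length in place of the longest, COL4A2 was the most abundant chain in both groups, and COL5A2 stood below COL4A1 and COL7A1 with knockdown but above both in the controls. The order therefore depends on the transcript chosen.

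**Figure D3:**
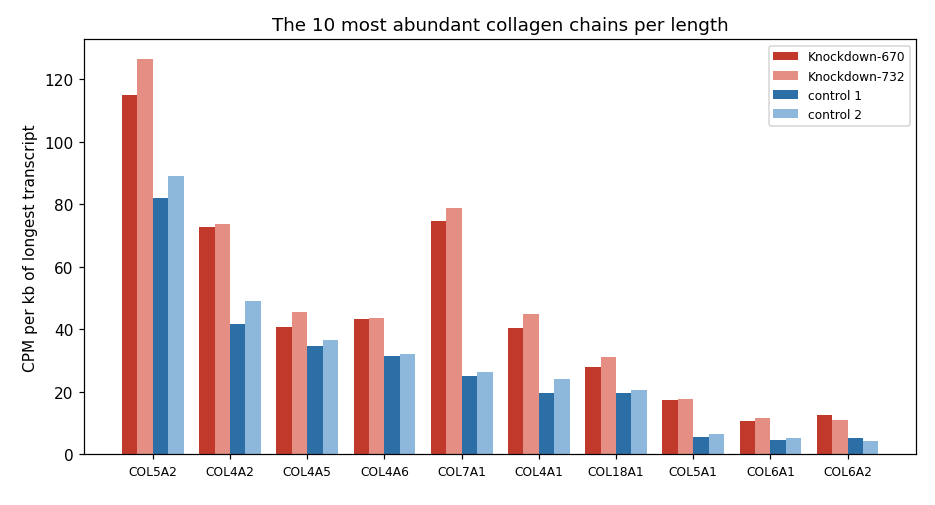
The 10 most abundant collagen chains per kilobase of longest annotated transcript (TMM-scaled CPM per kilobase), with 1 bar per library (Knockdown-670, Knockdown-732, control 1, control 2). COL7A1 stands at about 75 in the knockdown libraries and about 25 in the controls, which moves it from the fifth to the second place.

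Summed per kilobase, basement membrane chains made up 42.7% and 42.4% of the collagen pool in the knockdown libraries, against 45.8% and 46.7% in the controls, and fibril-forming chains 29.1% and 29.4% with knockdown, against 32.0% and 31.9% in the controls. Beaded filament chains made up 4.85% and 4.49% with knockdown, against 3.45% and 3.08% in the controls, and FACIT chains 1.42% and 1.66% with knockdown, against 2.39% and 2.25% in the controls. The groups did not overlap in any of these 4 classes. With the median transcript length, basement membrane chains made up 64.2% and 64.2% of the pool with knockdown, against 66.9% and 68.3% in the controls. Fibril-forming chains then made up 14.7% and 14.8% with knockdown, against 16.8% and 16.3% in the controls, and COL7A1 13.1% and 12.9% with knockdown, against 7.51% and 7.04% in the controls. The sizes of the shares thus rest on the length used, while the direction of these 3 differences was the same on both scales. The share of the anchoring fibril chain was the one that grew most in percentage points, while the basement membrane share was smaller although every type IV chain had risen in CPM.

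The balance between chains that assemble together was compared within each library. The ratio of COL5A1 to COL5A2 per kilobase was 0.152 and 0.140 in the knockdown libraries, against 0.0687 and 0.0747 in the controls. COL4A1 to COL4A2 was 0.556 and 0.608 with knockdown, against 0.472 and 0.490 in the controls, and COL4A3 to COL4A4 was 0.887 and 1.14 with knockdown, against 0.662 and 0.717 in the controls. In each of these 3 pairs the first chain gained on the second. COL4A5 to COL4A6 was lower with knockdown, at 0.943 and 1.04, against 1.10 and 1.14 in the controls. The groups did not overlap in these 4 pairs, but COL6A1 to COL6A2, at 0.863 and 1.05 with knockdown, against 0.900 and 1.19 in the controls, overlapped. A two-sided exact permutation test of the log ratios gave p = 0.333 for each of the 4 pairs, the smallest p that 2 libraries a group allow, and p = 0.667 for COL6A1 to COL6A2. The level of a ratio depends on the length used, and with the median transcript length COL4A3 to COL4A4 was 4.36 and 5.62 with knockdown, against 3.25 and 3.52 in the controls. The ratios were taken without the GC and length correction. With it, the log2 fold changes were 1.05 for COL5A1 and 0.36 for COL5A2, and 0.63 for COL4A1 and 0.23 for COL4A2. They were 0.91 for COL4A3 and 0.32 for COL4A4, 0.07 for COL4A5 and 0.14 for COL4A6, and 0.79 for COL6A1 and 0.90 for COL6A2.

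**Figure D4:**
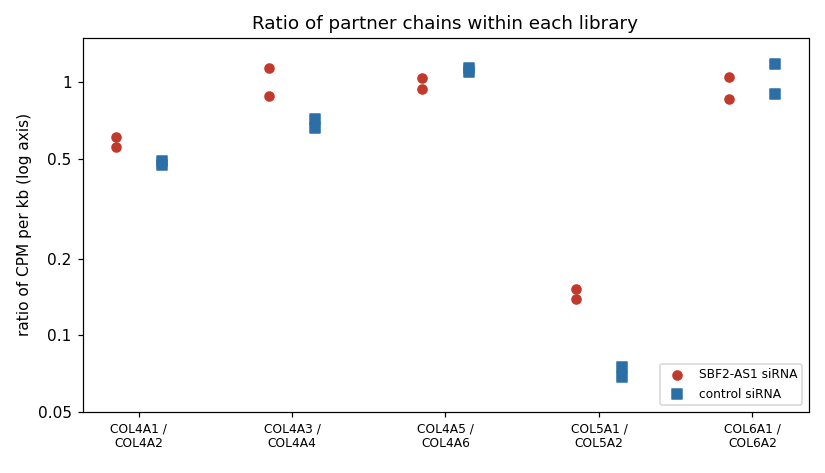
Ratio of 5 pairs of partner collagen chains per kilobase of transcript on a log axis, with 1 point per library (SBF2-AS1 siRNA first, control siRNA second). The COL5A1 to COL5A2 ratio is 0.140 and above with knockdown and below 0.08 in the controls, while the COL6A1 to COL6A2 ratio overlaps.

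Each knockdown library was set against both controls in a fit with 3 groups, in which the residual spread comes from the control pair only, so the 2 comparisons share their controls. Knockdown-670 had 16 of the 24 genes called higher and 2 lower (COL21A1 and COL26A1), against 21.6% and 20.4% of all genes. Knockdown-732 had 16 higher and 1 lower (COL26A1), against 20.6% and 19.6% of all genes. COL7A1 had log2 fold changes of 1.54 in Knockdown-670 and 1.62 in Knockdown-732, and COL5A1 had 1.51 in Knockdown-670 and 1.52 in Knockdown-732. COL22A1 differed most between the knockdown libraries, at 0.36 in Knockdown-670 and 1.69 in Knockdown-732, followed by COL21A1 at −0.85 in Knockdown-670 and −0.25 in Knockdown-732.

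Of the 24 tested genes, 17 had at least 1 miR-29 seed match in the 3' UTR, and 12 of them were called higher and 0 lower, with a median log2 fold change of 0.69 (edgeR; DESeq2 also called 0 lower, and 1, COL21A1, was lower at an unadjusted p under 0.05). The 17 include COL3A1, COL5A3 and COL22A1, which passed the filter only through the knockdown libraries. Of the 7 without a match 3 were higher and 1 lower, with a median of 0.55. These calls are from the fit without the GC and length correction. With it, COL4A5, COL4A6, COL16A1 and COL27A1, which have a match, and COL18A1 and COL20A1, which have none, were no longer called. Over all tested genes with a 3' UTR the median was 0.08 for the 1780 with a match, of which 534 were higher and 402 lower, and 0.00 for the 10333 without, of which 2695 were higher and 2672 lower. COL5A1, with 4 matches, and COL7A1, with 2, had the largest called rises, while COL21A1 with 2 matches and COL3A1 with 2 were not called. Of the genes with 3 matches, COL4A4 rose by 0.55 on the log2 scale and COL5A3 was not called. COL6A1, with no match, rose about as much as COL6A2, with 1. Genes rose with and without a match, and the difference between these sets was not tested.

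**Figure D5:**
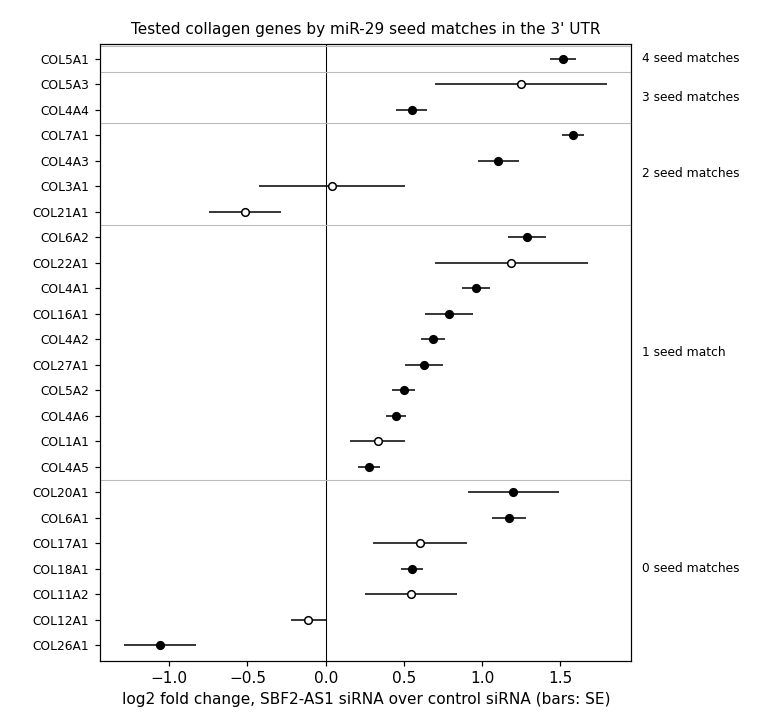
Log2 fold change (knockdown over control) of the 24 tested collagen genes ± SE, with 1 row per gene, grouped by the number of miR-29 seed matches in the 3' UTR and filled where the adjusted p was at most 0.05. Genes with no match include COL6A1, which rose, and COL26A1, which fell.

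Genes that make, cut or bind collagen were read from lists of known members. Of 33 tested genes for collagen modification, folding, secretion, processing and cross-linking, 19 were higher and 3 lower, against 23.5% and 22.8% of all genes, with a median log2 fold change of 0.40. LOXL2, a lysyl oxidase that cross-links collagen, had 1741 and 1847 CPM in the knockdown libraries, against 404 and 384 CPM in the controls (log2 fold change 2.19 ± 0.07, edgeR, adjusted p = 8.01e-14). LOX, a related enzyme, had 28.1 and 29.3 CPM with knockdown, against 6.26 and 5.59 CPM in the controls (2.27 ± 0.15, adjusted p = 4.99e-10). P4HA2, a catalytic chain of prolyl 4-hydroxylase, had 151 and 138 CPM with knockdown, against 60.8 and 60.5 CPM in the controls (1.25 ± 0.08, adjusted p = 2.87e-10). The groups were far apart for all 3 enzymes.

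SEC24D, a coat protein of the vesicles that carry procollagen from the endoplasmic reticulum, had 66.7 and 65.6 CPM in the knockdown libraries, against 37.7 and 36.7 CPM in the controls (log2 fold change 0.83, edgeR, adjusted p = 2.92e-07). Members of the list called lower, named after their values were seen, were KLHL12 (−0.98), CTAGE5 (−0.57) and P4HA3 (−0.36). With the GC and length correction these were −0.91, −0.28 and −0.43, all still called. P4HA3 was not called by DESeq2 (adjusted p = 0.114) nor without control library 1 (−0.34, adjusted p = 0.0952), without control library 2 (−0.39, adjusted p = 0.0539) or without Knockdown-732 (−0.31, adjusted p = 0.111). KLHL12 and CTAGE5 are known for a part in procollagen export and P4HA3 for prolyl hydroxylation, so the list did not move in 1 direction.

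Of 16 tested genes for collagen breakdown and its inhibition, 10 were higher and 1 lower, against 23.5% and 22.8% of all genes, with a median log2 fold change of 0.53. TIMP2, an inhibitor of matrix metalloproteinases, had 488 and 480 CPM in the knockdown libraries, against 196 and 217 CPM in the controls (log2 fold change 1.23 ± 0.07, edgeR, adjusted p = 1.25e-10). CTSB, a lysosomal protease, had 781 and 731 CPM with knockdown, against 448 and 441 CPM in the controls (0.77, adjusted p = 4.12e-08), and MMP7, a matrix metalloproteinase, had 64.5 and 68.6 CPM with knockdown, against 42.3 and 42.2 CPM in the controls (0.66, adjusted p = 4.84e-06). CTSL, another lysosomal protease, fell, with 240 and 236 CPM with knockdown, against 407 and 362 CPM in the controls (−0.69, adjusted p = 3.24e-07).

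Of 11 tested collagen receptors, 4 were higher and 2 lower, with a median log2 fold change of 0.18. These counts are near those over all genes, of which 23.5% were higher and 22.8% lower. ITGA2, the α chain of an integrin that binds collagen, had 491 and 551 CPM in the knockdown libraries, against 186 and 176 CPM in the controls (log2 fold change 1.53 ± 0.07, edgeR, adjusted p = 1.4e-11). DDR1, a receptor tyrosine kinase for collagen in epithelial cells, had 226 and 218 CPM with knockdown, against 115 and 113 CPM in the controls (0.96, adjusted p = 2.38e-09). With the GC and length correction DDR1 rose by 0.62. SDC4, a cell surface proteoglycan, rose by 0.67 on the log2 scale (edgeR, adjusted p = 7.88e-07). ITGB1, the shared integrin β chain, rose by 0.30 (adjusted p = 0.00174), and by 0.57 with the GC and length correction. GPR56, a receptor for type III collagen, and GPR126, a receptor for type IV, were the 2 called lower, at −0.24 and −0.23, and were named after their values were seen. GPR56 was not called by DESeq2 (adjusted p = 0.0701), without control library 1 (−0.22, adjusted p = 0.0666) or without Knockdown-732 (−0.14, adjusted p = 0.295). GPR126 was not called with the GC and length correction (−0.13, adjusted p = 0.116) or without Knockdown-670 (−0.19, adjusted p = 0.0870).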

How the data were processed

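The authors deposited raw counts per gene symbol for 4 RNA-seq libraries of A549 cells sequenced on the Ion Proton, per the labels. The submitters' processing notes name the build GRCh37. The sources used here do not give the aligner, the counting program, the annotation or whether strand was used. The counts were used as they stood, 2 libraries a group, by the sample titles. Chi-square per gene was 3.42 between the knockdown libraries and 3.72 between the controls, against 45.0 to 50.1 between groups. Each library was counted as its own replicate, but these values cannot show whether the libraries of a group are separate cultures. All genes were fitted with edgeR 4.0.16 under R 4.3.3 (TMM scaling after filterByExpr, robust glmQLFit and glmQLFTest, Benjamini-Hochberg over 16120 genes, threshold 0.05); the coefficient of biological variation was 6.64%. The SE of a log2 fold change was that change over the square root of its F statistic. The scripts were tested on simulated data.

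Alternatives were DESeq2 1.42.0, its size factors, library size alone, limma-voom (limma 3.58.1), no filter, at least 5 CPM in 2 libraries, each library left out, each knockdown library alone, the median transcript length (for class shares and chain ratios chosen after seeing the data), and a GC and length correction with mgcv 1.9.3, for which 14705 tested genes (91.2%) had a transcript. GENCODE v29 (GRCh38) was joined by symbol, and UTRs of at least 50 bases were those of the transcript with the longest coding sequence. All collagen symbols with at least 10 summed counts were named, with up to 4 called members of smallest p per pathway list. The members and lists were chosen with earlier results of these data known.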

Additional observations from a re-analysis of the deposited data

How the results depend on the processing

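The number of collagen genes called higher was 15, and 9 with the GC and length correction; leaving out 1 library gave 15 to 17, and the other alternatives gave 14 to 16. The number called lower was 1, with 2 under scaling by library size alone, which moves the median of all genes to −0.07, and 1 to 3 when 1 library was left out (3 without Knockdown-732, 2 without control library 1). Without the filter, the fit by single library called 0 lower in Knockdown-670 and 0 in Knockdown-732 (edgeR; 3 and 1 at an unadjusted p under 0.05). In the pathway lists, 5 biosynthesis genes were called lower under library size alone. With the GC and length correction, 2 breakdown genes were called lower. Receptors called lower were 1 with DESeq2 and 1 with that correction. Called higher with that correction were 15 biosynthesis, 8 breakdown and 4 receptor genes, against 19, 10 and 4 in the main fit. Leaving out 1 library gave 2 to 4 biosynthesis genes lower and 1 to 2 receptors lower (1 without Knockdown-670, without Knockdown-732 or without control library 1). Among the 24 tested collagen genes and the pathway genes named with values, reversals were seen in 3, none of them called: COL1A1 at −0.11 with the GC and length correction; COL3A1 at −0.17 with it, −0.0232 under library size alone, −0.22 in Knockdown-670 alone and −0.34 to 0.54 when 1 library was left out; and COL12A1 at 0.0491 in Knockdown-732 alone and −0.31 to 0.0467 when 1 library was left out. The cause was not tested. No paired analysis was possible because the numbers of the control libraries and those of the knockdown libraries have none in common. Depth limits the genes below about 1 CPM, where 20 of the 44 collagens were not tested.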
